A study of Homo sapiens with 42 samples.

Results

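The transcripts of H1299, a human lung carcinoma cell line, were compared between 12 h after 2 Gy of gamma radiation and 0 h, which the labels give as before irradiation. The comparison rests on 9 of the 42 arrays of the series, 3 at 12 h and 6 at 0 h, chosen by their labels. It covers all 18404 genes tested. H1299 was also measured at 2, 4, 8 and 24 h (3 arrays each), and the lung line H460 at the same times (3 arrays each, 6 at 0 h). The study names H1299 as radioresistant and H460 as radiosensitive. Each group is a culture of 1 line in exponential growth in medium with serum, and the labels name no other treatment. The study's protocol mentions unirradiated control cells incubated for the same times, but the labels place all 6 arrays at 0 h, and none used here is labelled as unirradiated after 0 h. Irradiation and 12 h more in culture cannot be told apart.

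Ionizing radiation breaks both strands of DNA. The breaks activate the kinases ATM and ATR, which halt the cycle before S phase and before mitosis while repair proceeds. The halt in G1 acts largely through the inhibitor p21, and the halt in G2 through the inhibition of CDK1.

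Values are log2 array summaries, and a difference of 1 is a 2-fold difference. They were normalized by the authors in a way not given in the sources used here, and have no detection calls, so a low value may be background. Called means an adjusted p under 0.05 by limma with Benjamini-Hochberg adjustment over all genes. In this text "rose" and "fell" are used only of called genes, and each change is given with its standard error. In RNA from a whole culture, a shift in the share of cells in a phase of the cycle and a shift in RNA per cell cannot be told apart. The labels number the arrays of each group as biological replicates without naming separate cultures, so p-values measure the spread between these arrays only.

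The interquartile range of the values of an array, its width, differed between the groups. It was 3.76, 3.93 and 3.76 at 12 h, against 3.24 to 3.69 at 0 h. Replicate 2 at 12 h was the widest of the 9 arrays, and replicate 2 at 0 h stood apart as the narrowest. On wider arrays high values lie higher and low values lower, and the median change was 0.041 for the 6134 genes of highest level at 0 h and -0.11 for the 6135 of lowest level. The list counts at 12 h against 0 h are therefore also given with array width as a term in the model (with width), and for many lists also without replicate 2 at 12 h or without replicate 2 at 0 h. The part of array width in the results was not tested beyond these values.

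At 12 h 5474 genes (29.7%) were called, with 3063 higher (16.6%) and 2411 lower (13.1%). These shares are the background for every count below. The arrays of 4207 called genes (22.9%) did not overlap between 12 h and 0 h. Over all genes, called or not, this held for 4843 (26.3%). The largest rises and falls named below were chosen among the 4207, so their lack of overlap was set by that choice. Rises were larger than falls: 724 genes rose and 98 fell by at least 1.5-fold, and 74 rose and 7 fell by at least 2-fold. The median change over all genes was -0.057. With array width in the model 3263 genes were called, 1693 higher (9.2%) and 1570 lower (8.53%), and 1608 of the genes that rose and 932 of those that fell kept their call. Without replicate 2 at 12 h the count was 3137, with 2070 higher and 1067 lower. The plot of all genes shows the larger rises above the smaller falls.

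**Figure D1:**
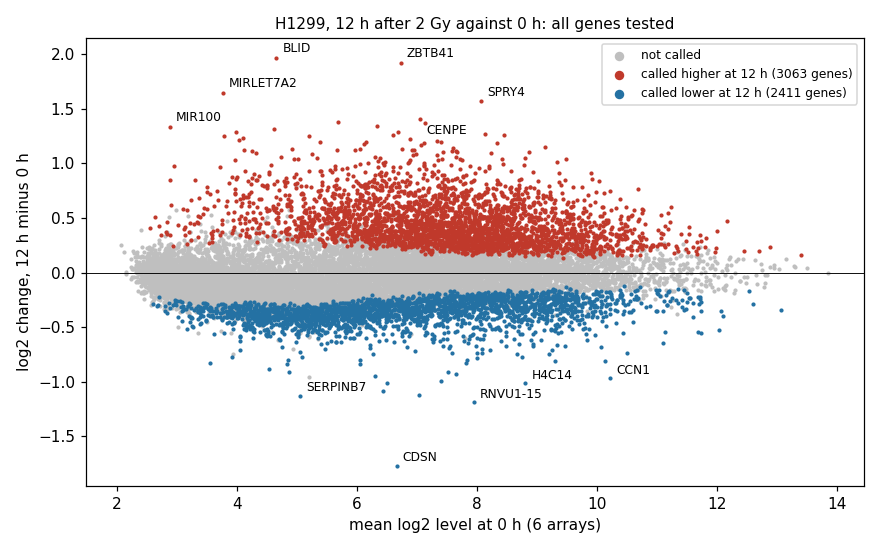
Each point is 1 of the 18404 genes, with its mean log2 level at 0 h (6 arrays) on the x axis and its log2 change, 12 h minus 0 h, on the y axis. Red points were called higher (3063 genes) and blue points lower (2411), and BLID at 1.97 and CDSN at -1.77 mark the ends of the range.

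The largest rise was at the locus of MIR100HG, a long noncoding RNA gene on chromosome 11 within which RefSeq places BLID, MIRLET7A2, MIR100 and MIR125B1. BLID encodes a small protein reported to promote cell death. The other genes encode precursors of let-7a, miR-100 and miR-125b, microRNAs that silence messenger RNAs through the seed at their bases 2 to 8. A second microRNA cluster, MIR106B with MIR93 and MIR25 in the gene MCM7, moved the other way. The mature sequences are shown because the seeds set the targets of each microRNA. They are from RefSeq (GRCh38.p14), 5′ to 3′, with the seed in capitals, and the first 3 belong to the locus on chromosome 11 and the last 3 to the cluster on chromosome 7.
hsa-let-7a-5p: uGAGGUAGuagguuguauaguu
hsa-miR-100-5p: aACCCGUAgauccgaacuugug
hsa-miR-125b-5p: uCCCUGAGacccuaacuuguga
hsa-miR-106b-5p: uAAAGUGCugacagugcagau
hsa-miR-93-5p: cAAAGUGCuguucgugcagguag
hsa-miR-25-3p: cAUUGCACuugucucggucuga
miR-106b and miR-93 share the seed AAAGUGC, and the other 4 have seeds of their own. The array target was made from total RNA for whole transcripts, so a value for a microRNA gene reports its precursor or the transcript around it and not the mature molecule.

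BLID had log2 levels of 6.72, 6.67 and 6.48 at 12 h, against a lowest of 4.32, a median of 4.54 and a highest of 5.36 at 0 h. All 3 arrays at 12 h were above the highest at 0 h, which was replicate 1 and stood apart from the other 5. BLID rose by 1.97 ± 0.19 (3.90-fold, limma adjusted p = 5.17e-08). MIRLET7A2 had levels of 5.21, 5.60 and 5.40 at 12 h, against a lowest of 3.49, a median of 3.79 and a highest of 3.91 at 0 h, again without overlap. It rose by 1.64 ± 0.16 (3.12-fold, limma adjusted p = 8.59e-08). MIR100 had levels of 3.85, 4.30 and 4.52 at 12 h, against a lowest of 2.72, a median of 2.82 and a highest of 3.26 at 0 h, and it rose by 1.34 ± 0.21 (2.53-fold, limma adjusted p = 3.66e-05). MIR100 lies near the low end of the array values. Its lowest array at 12 h was still above its highest at 0 h. MIR125B1, named after its values were seen, rose by 0.36 ± 0.14 (limma adjusted p = 0.0468), a call that was lost without any 1 of the 9 arrays except replicate 2 at 0 h (adjusted p = 0.0515 to 0.174). All 4 genes measured inside MIR100HG thus rose, while the host gene itself was not analysed here. The genes share 1 locus and are not independent measurements of it.

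The rise at this locus began before 12 h. BLID was 0.85 above 0 h at 2 h, 1.53 at 4 h, 1.86 at 8 h, 1.97 at 12 h and 1.24 at 24 h. MIRLET7A2 was 0.41, 0.97, 1.21, 1.64 and 0.89 above 0 h at the same times. Both had their highest mean at 12 h. In H460 the changes at 12 h were 0.33 for BLID, -0.29 for MIRLET7A2 and -0.11 for MIR100, none of them called. Their mean levels in H460 at 0 h were 3.67, 3.38 and 2.59, near the low end of the array values. A lack of response and a lack of signal in H460 cannot be told apart for these genes. The H1299 change exceeded the H460 change by 1.63 ± 0.31 for BLID (limma adjusted p = 0.000435), by 1.94 ± 0.21 for MIRLET7A2 (adjusted p = 4.12e-08) and by 1.44 ± 0.26 for MIR100 (adjusted p = 0.000208).

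MIR106B fell by 0.84 ± 0.12 (1.79-fold lower, limma adjusted p = 6.65e-06). Its levels were 5.09, 5.33 and 5.20 at 12 h, against a lowest of 5.79, a median of 6.07 and a highest of 6.22 at 0 h, without overlap. Its cluster mates, named after their values were seen, also fell, MIR25 by 0.67 ± 0.086 (adjusted p = 2.56e-06) and MIR93 by 0.41 ± 0.14 (adjusted p = 0.0292). The MIR93 arrays overlapped, and its call was lost without replicate 1 at 0 h (adjusted p = 0.0571) or replicate 3 at 12 h (adjusted p = 0.203). MCM7, a subunit of the replicative helicase that hosts the cluster, changed by -0.18 ± 0.083 and was not called (adjusted p = 0.105), though it was called without replicate 2 at 0 h (-0.26, adjusted p = 0.000468) and with array width in the model (-0.38, adjusted p = 0.000301). MIR17HG, the host gene of the related miR-17 cluster and likewise named after its values were seen, rose by 0.81 ± 0.15 (adjusted p = 0.000203).

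Of the other largest rises, SPRY4 and ZBTB41 had the smallest p-values. SPRY4, an inhibitor of receptor tyrosine kinase signalling, had levels of 9.68, 9.59 and 9.68 at 12 h, against a lowest of 7.91, a median of 8.06 and a highest of 8.25 at 0 h. The 12 h arrays lay well above all 6 at 0 h, and SPRY4 rose by 1.58 ± 0.066 (2.98-fold, limma adjusted p = 2.31e-14). ZBTB41, a zinc finger gene, had levels of 8.47, 8.90 and 8.58 at 12 h, against a lowest of 6.42, a median of 6.76 and a highest of 6.95 at 0 h, and it rose by 1.92 ± 0.13 (3.79-fold, limma adjusted p = 3.28e-10). The 15 largest rises also included CCDC18 (1.38 ± 0.16), a coiled-coil protein, G2E3 (1.34 ± 0.13), a ubiquitin ligase named for its peak in G2, and SYCP2 (1.29 ± 0.16), a protein of the synaptonemal complex of meiosis. The bitter taste receptor TAS2R31 (1.31 ± 0.20), the zinc finger gene ZNF441 (1.29 ± 0.19), N4BP2 (1.26 ± 0.14) and FAM9C (1.26 ± 0.11) were among them too. These 15 genes rose between 2.40-fold and 3.90-fold, and all 15 kept the call with array width in the model. All 15 were also called higher at 8 h (background 15%) and 12 of them at 24 h (background 8.53%), comparisons that share the 0 h arrays. In H460 at 12 h 4 of the 15 rose (background 16.7%), and of the 15 largest falls 12 also fell in H460 (background 16.8%). The plot of the arrays shows the single values for 5 of these genes and 5 that fell, all chosen for lack of overlap.

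**Figure D2:**
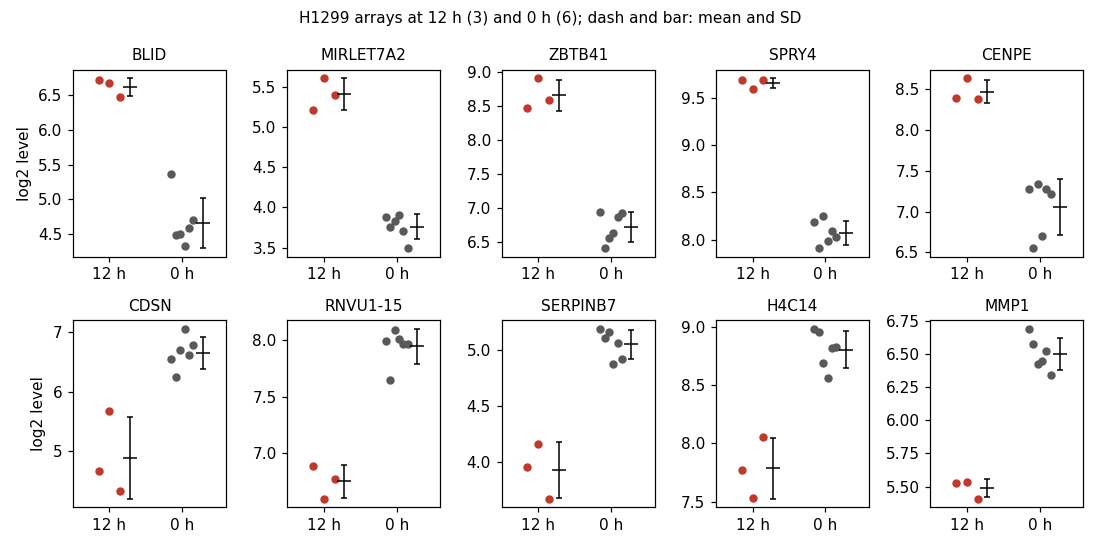
Points are the log2 levels of single H1299 arrays at 12 h (3, red) and 0 h (6, grey) for 5 of the genes with the largest rise and 5 with the largest fall, and the dash and bar give the mean and SD of each group. The groups do not overlap in any of the 10 panels because genes were chosen on that condition, and BLID at 0 h has 1 array at 5.36 above the other 5.

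Genes of mitosis rose in several groups. They are transcribed mainly in G2 and are largely switched on through MuvB complexes and the factors B-MYB, FOXM1 and NF-Y at elements called CHR and CCAAT boxes. Of the 14 mitotic kinesins measured, motors that move chromosomes and slide microtubules, 11 rose and 0 fell, with a list median of 0.54 against -0.057 for all genes. Of 26 genes of the spindle and cytokinesis 21 rose and 0 fell (median 0.41). Of 23 genes of chromosome condensation, cohesion and topoisomerase 19 rose and 0 fell (median 0.49). Of 42 genes of the kinetochore and spindle checkpoint 18 rose and 4 fell (median 0.17), and of 30 mitotic kinases, cyclins and CDC25 phosphatases 13 rose and 2 fell (median 0.22). Of 15 genes of the anaphase-promoting complex and its partners 4 rose and 0 fell (median 0.068).

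With array width in the model the same lists had 9 kinesins, 17 spindle genes, 14 condensation genes, 12 kinetochore genes and 9 mitotic kinases higher, and 0, 1, 1, 8 and 4 lower. Without replicate 2 at 12 h, 9, 20, 17, 17 and 11 were higher, and 2 kinetochore genes were lower. For the anaphase-promoting complex, width in the model gave 2 higher and 4 lower.

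CENPE, the kinetochore motor that brings chromosomes to the spindle equator, had levels of 8.39, 8.63 and 8.38 at 12 h, against a lowest of 6.55, a median of 7.24 and a highest of 7.33 at 0 h. It rose by 1.41 ± 0.14 (2.65-fold, limma adjusted p = 1.20e-07), and its 12 h arrays lay above all at 0 h. Replicates 2 and 4 at 0 h lay below the other 0 h arrays.

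KIF20B, a kinesin of cytokinesis, had levels of 8.31, 8.70 and 8.50 at 12 h, against a lowest of 6.53, a median of 7.36 and a highest of 7.41 at 0 h and rose by 1.37 ± 0.16 (2.58-fold, limma adjusted p = 6.10e-07). ASPM, a spindle pole protein whose loss in humans causes small brains, had levels of 9.36, 9.50 and 9.34 at 12 h, against a lowest of 7.76, a median of 8.18 and a highest of 8.46 at 0 h and rose by 1.27 ± 0.12 (2.41-fold, limma adjusted p = 5.17e-08). CENPF, a protein of the outer kinetochore, had levels of 10.54, 10.51 and 10.52 at 12 h, against a lowest of 9.23, a median of 9.45 and a highest of 9.77 at 0 h and rose by 1.04 ± 0.093 (2.06-fold, limma adjusted p = 2.42e-08). In each of these genes the groups did not overlap, and the 3 arrays at 12 h lay close together relative to the rise.

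Other kinetochore genes that rose were SGO2, which protects centromeric cohesion (1.19 ± 0.11), KNL1, the scaffold that docks checkpoint proteins (0.91 ± 0.090), and SPDL1, which recruits dynein (0.67 ± 0.067). Among kinesins KIF14 rose by 1.11 ± 0.10, KIF18A by 0.93 ± 0.086, KIF11, the motor that separates spindle poles, by 0.72 ± 0.093, and KIF23, a motor of the midzone, by 0.57 ± 0.070. TOP2A, the topoisomerase that untangles sister chromatids, rose by 0.85 ± 0.063, and the condensin subunits SMC4 and SMC2 by 0.84 ± 0.083 and 0.71 ± 0.074. The cohesin loader NIPBL rose by 0.77 ± 0.088. DEPDC1, HMMR, which binds hyaluronan and spindle microtubules, and ECT2, which starts the contractile ring, rose by 1.15 ± 0.088, 0.96 ± 0.090 and 0.75 ± 0.083.

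Among mitotic kinases and cyclins PLK1, a kinase of mitotic entry, had levels of 11.002, 11.12 and 11.11 at 12 h, against a lowest of 10.27, a median of 10.59 and a highest of 10.70 at 0 h, without overlap, and rose by 0.52 ± 0.070 (limma adjusted p = 4.72e-06). Cyclin B1 (CCNB1), the partner of CDK1, rose by 0.35 ± 0.054 (adjusted p = 3.33e-05), AURKA, a kinase of the spindle pole, by 0.38 ± 0.070 (adjusted p = 0.000204) and PLK4, the kinase of centriole duplication, by 0.44 ± 0.081 (adjusted p = 0.000222). CKS1B, a small subunit of cyclin-dependent kinases, fell by 0.34 ± 0.050 (adjusted p = 1.48e-05). Of the anaphase genes, the APC/C subunit CDC27 rose by 0.62 ± 0.083 (adjusted p = 4.39e-06), the protease separase (ESPL1) by 0.33 ± 0.088 (adjusted p = 0.00629) and the ubiquitin-conjugating enzyme UBE2C by 0.22 ± 0.060 (adjusted p = 0.00769). ESPL1 was not called with array width in the model (0.12, adjusted p = 0.334). UBE2C was not called after quantile normalization (0.14, adjusted p = 0.126) or with all 42 arrays in the model (0.22, adjusted p = 0.0515).

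The promoters of the mitosis genes were searched for the CHR letters TTTGAA and for CCAAT, on both strands and counting overlapping matches, in RefSeq windows of 300 bases around each start, most of them before it (GRCh38.p14). TTTGAA was present in 63 of the 127 mitosis genes with a promoter in the table (49.6%), in 41 of the 72 that rose (56.9%) and in 1694 of 14230 over all genes tested (11.9%). CCAAT was present in 61.4% of the mitosis promoters and 36.3% of all. Both were present in 34.6% of the mitosis promoters and 4.86% of all. The promoters of the G1/S and replication lists held TTTGAA in 4 of 70 (5.71%), and the E2F letters TTTCCCGC in 17.1% against 2.25% of all promoters. The match is a feature of the letters and was not compared with any binding data. Among all genes that rose at 12 h 12.7% held TTTGAA, close to the share over all genes, and among those that fell 7.54%. The promoters of ASPM, KIF20B and CENPF are shown as genes with large rises that hold both motifs, chosen after the matches were seen, 5′ to 3′ on the strand of the gene, with both motifs and their reverse complements in capitals.
ASPM, chr1:197146620-197146919, minus strand: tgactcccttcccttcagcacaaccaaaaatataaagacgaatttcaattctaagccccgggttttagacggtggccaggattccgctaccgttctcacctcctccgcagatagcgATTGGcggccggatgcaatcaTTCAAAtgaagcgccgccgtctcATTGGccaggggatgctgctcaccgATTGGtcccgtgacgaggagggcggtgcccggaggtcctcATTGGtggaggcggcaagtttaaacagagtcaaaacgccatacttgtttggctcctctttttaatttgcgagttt
KIF20B, chr10:89701340-89701639, plus strand: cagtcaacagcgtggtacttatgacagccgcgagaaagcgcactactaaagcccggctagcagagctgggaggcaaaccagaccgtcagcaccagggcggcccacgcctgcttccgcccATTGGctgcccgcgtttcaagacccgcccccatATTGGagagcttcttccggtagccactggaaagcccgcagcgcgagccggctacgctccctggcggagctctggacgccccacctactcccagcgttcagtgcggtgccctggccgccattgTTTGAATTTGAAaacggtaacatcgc
CENPF, chr1:214602945-214603244, plus strand: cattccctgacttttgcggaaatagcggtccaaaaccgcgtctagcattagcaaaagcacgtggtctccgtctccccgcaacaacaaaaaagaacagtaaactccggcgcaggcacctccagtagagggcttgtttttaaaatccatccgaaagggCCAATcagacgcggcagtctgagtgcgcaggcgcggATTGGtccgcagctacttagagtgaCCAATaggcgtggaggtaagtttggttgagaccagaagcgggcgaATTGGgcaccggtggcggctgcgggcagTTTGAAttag
The CHR letters occurred 2 times in the KIF20B window and 1 time in each of the others, and the CCAAT letters 4 times in ASPM and CENPF and 2 times in KIF20B.

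Of 39 centrosome and centriole genes 33 rose and 0 fell (median 0.56), and 21 rose and 0 fell with width. CEP170, a protein of the mother centriole, rose by 0.78 ± 0.073, PCM1, the scaffold of centriolar satellites, by 0.75 ± 0.073, and CCP110, a cap of the centriole end, by 0.91 ± 0.098 (limma adjusted p = 4.09e-08, 7.02e-08 and 2.45e-07).

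Genes of the DNA damage response rose more often than they fell. Of 42 genes of double-strand break repair 23 rose and 3 fell (median 0.27; 15 and 6 with width, 14 and 3 without replicate 2 at 12 h, and 22 and 6 without replicate 2 at 0 h). Of 16 Fanconi anaemia genes 8 rose and 1 fell (4 and 3 with width), and of 22 genes of checkpoint signalling 9 rose and 1 fell (5 and 3 with width). ATM, the kinase that senses broken ends, had levels of 8.43, 8.50 and 8.42 at 12 h, against a lowest of 6.92, a median of 7.47 and a highest of 7.64 at 0 h. Its groups did not overlap, and it rose by 1.04 ± 0.11 (2.05-fold, limma adjusted p = 3.08e-07). ATR, its relative that senses single-stranded DNA, rose by 0.78 ± 0.087 (adjusted p = 4.11e-07), and RIF1, which shields ends from resection, by 0.85 ± 0.079 (adjusted p = 4.09e-08).

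FANCM, a translocase that recruits the Fanconi core complex, rose by 1.12 ± 0.12 (limma adjusted p = 2.48e-07), the resolvase GEN1 by 0.75 ± 0.088, and POLQ, the polymerase of end joining at microhomologies, by 0.65 ± 0.085. BRIP1, a helicase partner of BRCA1, rose by 0.40 ± 0.083 (adjusted p = 0.000742), but was not called with array width (0.20, adjusted p = 0.0573). CDC25A, the phosphatase that checkpoint kinases mark for destruction, fell by 0.45 ± 0.085 (adjusted p = 0.000291).

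Genes of replication origins and forks fell more often than they rose. Of 54 measured 8 rose and 20 fell (median -0.13), against 2 and 29 with width and 5 and 17 without replicate 2 at 12 h. Of 30 genes of G1/S cyclins and E2F factors 7 rose and 8 fell (median 0.015), against 3 and 10 with width. Of 23 genes of nucleotide supply 5 rose and 6 fell (median -0.061), against 4 and 9 with width, 4 and 4 without replicate 2 at 12 h, and 5 and 12 after quantile normalization. Cyclin E1 (CCNE1), which drives entry into S phase with CDK2, had levels of 7.29, 7.29 and 7.19 at 12 h, against a lowest of 7.93, a median of 7.98 and a highest of 8.11 at 0 h. The 12 h arrays lay below all at 0 h, and CCNE1 fell by 0.74 ± 0.065 (1.67-fold lower, limma adjusted p = 2.01e-08). The activators E2F1 and E2F2 fell by 0.58 ± 0.078 and 0.47 ± 0.079 (adjusted p = 3.88e-06 and 7.50e-05).

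GINS2, a subunit of the replicative helicase, fell by 0.74 ± 0.074 (limma adjusted p = 9.26e-08), and FEN1, the nuclease that trims Okazaki fragments, by 0.67 ± 0.066 (adjusted p = 7.37e-08). The chromatin assembly subunits CHAF1A and CHAF1B fell by 0.48 ± 0.064 and 0.49 ± 0.061, the polymerase epsilon subunit POLE3 by 0.44 ± 0.055, and the uracil glycosylase UNG by 0.43 ± 0.071. CDK6, a kinase of G1, rose by 0.80 ± 0.080 (adjusted p = 8.56e-08) and the retinoblastoma gene RB1 by 0.81 ± 0.10 (adjusted p = 1.50e-06). RRM2B, a ribonucleotide reductase subunit used for repair, rose by 0.73 ± 0.13 (adjusted p = 0.000151), and CAD, which starts pyrimidine synthesis, by 0.37 ± 0.066 (adjusted p = 0.000155).

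Replication-dependent histones, made in S phase to package new DNA, fell as a group. Of 53 measured 2 rose and 29 fell (median -0.35). With array width 34 fell, and without replicate 2 at 12 h 19 fell. H4C14 had levels of 7.78, 7.53 and 8.05 at 12 h, against a lowest of 8.56, a median of 8.82 and a highest of 8.98 at 0 h, without overlap, and fell by 1.02 ± 0.11 (2.02-fold lower, limma adjusted p = 2.83e-07). H2AC4 fell by 0.81 ± 0.10, H3C2 by 0.74 ± 0.11, H4C2 by 0.71 ± 0.080 and H2BC14 by 0.65 ± 0.083. Genes of a histone family are near-identical copies, and probes may share signal among them.

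CDKN1A, which encodes the cycle inhibitor p21, had levels of 6.91, 6.89 and 7.01 at 12 h, against a lowest of 6.75, a median of 6.87 and a highest of 6.99 at 0 h. The groups overlapped, and its change of 0.063 ± 0.071 was not called (limma adjusted p = 0.524). At other times CDKN1A rose against 0 h, by 0.20 ± 0.071 at 8 h (adjusted p = 0.0441) and by 0.42 ± 0.071 at 24 h (adjusted p = 0.000262). At 4 h it was 0.20 ± 0.071 above 0 h and not called (adjusted p = 0.0506), so the call at 8 h lies near the threshold. The difference of 12 h minus 8 h was -0.13 ± 0.082 and not called (adjusted p = 0.984). The difference of 12 h minus 24 h was -0.35 ± 0.082 (adjusted p = 0.00845). MDM2, a ubiquitin ligase, had levels of 9.53, 9.54 and 9.54 at 12 h, against a lowest of 9.03, a median of 9.13 and a highest of 9.32 at 0 h, without overlap, and rose by 0.39 ± 0.059 (1.31-fold, adjusted p = 1.86e-05).

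Of 28 genes of the BCL2 family and caspases 6 rose and 5 fell (4 and 2 with width, and 5 and 2 without replicate 2 at 12 h). APAF1, the core of the apoptosome, rose by 0.70 ± 0.071 (limma adjusted p = 1.18e-07) and MCL1, which blocks mitochondrial death, by 0.60 ± 0.081 (adjusted p = 4.39e-06). The inflammatory caspase CASP4 fell by 0.42 ± 0.083 (adjusted p = 0.000495).

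Genes of growth factor signalling changed in both directions. Of 24 feedback genes of the MAP kinase cascade, which ERK signalling induces and which then restrain it, 11 rose and 2 fell (median 0.27; 9 and 1 with width). DUSP6, the phosphatase of ERK, had levels of 9.33, 9.40 and 9.24 at 12 h, against a lowest of 8.11, a median of 8.23 and a highest of 8.40 at 0 h, far apart without overlap, and rose by 1.10 ± 0.061 (2.14-fold, limma adjusted p = 1.04e-11). PHLDA1 rose by 0.72 ± 0.061, the ephrin receptor EPHA2 by 0.85 ± 0.079 and ERRFI1, an inhibitor of the EGF receptor, by 0.53 ± 0.067. DUSP1, a phosphatase of JNK and p38, fell by 0.45 ± 0.085 (adjusted p = 0.000292), with overlapping arrays.

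Of 14 genes of the EGF receptor family and its ligands 6 rose and 1 fell (4 and 0 with width). The ligands HBEGF and TGFA rose by 0.92 ± 0.088 and 0.91 ± 0.13 (limma adjusted p = 5.17e-08 and 8.53e-06). Of 26 immediate-early genes, the first transcripts that a stimulus induces, 6 rose and 9 fell (7 and 7 with width). CCN1, a secreted matrix protein and target of YAP, had levels of 9.18, 9.30 and 9.27 at 12 h, against a lowest of 9.99, a median of 10.25 and a highest of 10.33 at 0 h, without overlap, and fell by 0.97 ± 0.067 (1.96-fold lower, adjusted p = 5.98e-10). JUND and ATF3 fell by 0.58 ± 0.066 and 0.78 ± 0.11, and IER2 rose by 0.55 ± 0.064.

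Of 25 genes of cytokines and NF-kB feedback 4 rose and 6 fell. The counts were 3 and 3 with width, 4 and 2 without replicate 2 at 12 h, and 4 and 3 without replicate 2 at 0 h, so that falls did not outnumber rises there. LIF, a cytokine of the IL-6 family, had levels of 5.43, 5.20 and 5.10 at 12 h, against a lowest of 3.90, a median of 4.00 and a highest of 4.21 at 0 h, without overlap, and rose by 1.21 ± 0.10 (2.32-fold, limma adjusted p = 1.46e-08). NFKB2 rose by 0.51 ± 0.062, and NFKBIA, the inhibitor that NF-kB induces, fell by 0.49 ± 0.086. Of 37 interferon-stimulated genes 8 rose and 3 fell (5 and 2 with width, and 5 and 1 without replicate 2 at 12 h), with SAMD9 higher by 1.19 ± 0.14 and the RNA sensor IFIH1 by 0.79 ± 0.12. Of 21 genes of ID proteins and TGF-beta feedback 5 rose and 4 fell (4 and 4 with width). The ligand TGFB2 rose by 1.03 ± 0.11 and SKIL, which restrains SMAD proteins, by 1.21 ± 0.12, while ID2 and ID4, inhibitors of differentiation factors, fell by 0.74 ± 0.089 and 0.52 ± 0.092. Of 17 metalloproteinases and inhibitors 2 rose and 3 fell (1 and 3 with width), and the protease urokinase (PLAU) rose by 0.70 ± 0.064.

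The largest fall was that of CDSN, corneodesmosin, an adhesion protein of the epidermis. It had levels of 4.67, 5.67 and 4.34 at 12 h, against a lowest of 6.24, a median of 6.66 and a highest of 7.06 at 0 h. The 12 h arrays spread widely, with replicate 2 above the others, but stayed below all at 0 h. CDSN fell by 1.77 ± 0.23 (3.41-fold lower, limma adjusted p = 3.22e-06). It also fell in H460 at 12 h (-1.71 ± 0.34, adjusted p = 0.000758), and the line difference was not called (-0.063 ± 0.45, adjusted p = 0.962). SERPINB7, a protease inhibitor, had levels of 3.95, 4.16 and 3.67 at 12 h, against a lowest of 4.88, a median of 5.09 and a highest of 5.19 at 0 h and fell by 1.13 ± 0.13 (adjusted p = 7.56e-07). The collagenase MMP1 had levels of 5.53, 5.53 and 5.41 at 12 h, against a lowest of 6.34, a median of 6.49 and a highest of 6.69 at 0 h and fell by 1.01 ± 0.11 (adjusted p = 4.87e-07). Both groups stood apart in each gene, and the 3 values of MMP1 at 12 h were nearly equal. PPP1R15A, which returns protein synthesis to normal after stress, fell by 0.93 ± 0.076, and the muscle glycogen phosphorylase PYGM by 0.84 ± 0.12.

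Spliceosomal snRNA genes made up 6 of the 15 largest falls. These RNAs form the cores of the spliceosomes, with U11 and U4atac in the minor one. Of 23 measured 0 rose and 13 fell (median -0.60). With array width in the model 14 fell, and with dim genes left out of the tests 8 fell. RNVU1-15, a variant U1 gene, had levels of 6.89, 6.60 and 6.77 at 12 h, against a lowest of 7.64, a median of 7.98 and a highest of 8.09 at 0 h. All 12 h arrays were lower, and it fell by 1.19 ± 0.12 (2.28-fold lower, limma adjusted p = 1.82e-07). RNU4ATAC fell by 1.12 ± 0.20, RNU11 by 0.99 ± 0.14, RNU4-1 by 0.91 ± 0.16, RNVU1-3 by 0.91 ± 0.15, RNVU1-1 by 0.82 ± 0.17 and RNU2-1 by 0.81 ± 0.13. The fall was present at 2 h (-1.19 for RNVU1-15) and at 24 h (-1.51). Variant U1 genes are near-identical copies and may share probe signal. Of 192 snoRNA and Cajal body RNA genes 13 rose and 22 fell, with 4 and 55 by array width and 11 and 43 without replicate 2 at 0 h. SNORD52 rose by 1.14 ± 0.15 and SNORD104 fell by 0.71 ± 0.12.

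The lists of energy, ribosome and proteasome genes had no member that rose. Of 63 genes of oxidative phosphorylation 0 rose and 25 fell (median -0.22), of 58 cytosolic ribosomal proteins 0 and 16 (median -0.16), and of 28 proteasome subunits 0 and 10 (median -0.15). The falls were small. RPS14 fell by 0.55 ± 0.064, RPL35 by 0.35 ± 0.086, the complex I subunit NDUFS6 by 0.33 ± 0.057, cytochrome c1 (CYC1) by 0.38 ± 0.069 and the proteasome subunit PSMA7 by 0.53 ± 0.088. These counts moved with the arrays used. Without replicate 2 at 0 h 36, 32 and 15 fell, with array width 38, 37 and 17, and without replicate 2 at 12 h 18, 6 and 7.

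Stress and metabolic lists were mixed. Of 35 genes of the ATF4 program, which amino acid shortage and ER stress induce, 7 rose and 4 fell. The balance turned to 3 and 6 with width and to 5 and 8 after quantile normalization, and was 4 and 3 without replicate 2 at 12 h and 6 and 6 without replicate 2 at 0 h. ATF4 itself fell by 0.41 ± 0.066 (limma adjusted p = 5.08e-05). Of 22 ER chaperones and sensors 5 rose and 3 fell (2 and 3 with width, 3 and 1 without replicate 2 at 12 h, and 4 and 5 without replicate 2 at 0 h), with SEL1L, a subunit of the ER degradation ligase, higher by 0.54 ± 0.078. Of 28 NRF2 targets 5 rose and 5 fell, with the exporter ABCC3 higher by 0.55 ± 0.11 and glutathione reductase (GSR) lower (-0.35 ± 0.070). With width 1 NRF2 target rose and 9 fell, and without replicate 2 at 12 h 2 rose and 2 fell. Of 30 hypoxia and glycolysis genes 3 rose and 4 fell (2 and 5 with width), with the glucose transporter SLC2A3 higher by 0.43 ± 0.071 and adrenomedullin (ADM) lower (-0.63 ± 0.084). Of 27 genes of sterol and fatty acid synthesis 9 rose and 0 fell (median 0.15; 5 and 2 with width), led by the desaturase SCD (0.77 ± 0.078), the cholesterol carrier STARD4 (0.69 ± 0.092) and acetyl-CoA carboxylase (ACACA, 0.53 ± 0.080). Of 19 clock genes 4 rose and 4 fell (2 and 2 with width, and 3 and 2 without replicate 2 at 12 h), with CLOCK higher by 0.83 ± 0.13 and NR1D2, a repressor in the clock, lower (-0.54 ± 0.091).

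Of 39 chromatin remodellers and large chromatin proteins 24 rose and 0 fell (median 0.28; 14 and 0 with width), among them SMARCAD1 (0.85 ± 0.083), the ATP-dependent remodeller ATRX (0.86 ± 0.097) and PHIP (0.64 ± 0.066). Of 18 golgins and vesicle tethers 14 rose and 0 fell (median 0.59; 11 and 0 with width), among them TRIP11 (1.11 ± 0.12), with the lipid carrier VPS13C higher by 1.08 ± 0.12. Of 495 zinc finger genes named ZNF 236 rose and 26 fell (median 0.26), and 135 rose and 20 fell with width, and 169 and 10 without replicate 2 at 12 h. On chromosome 19, which holds large clusters of these genes, 134 of 237 rose (56.5%), against 102 of 258 elsewhere (39.5%). ZNF555, ZNF616 and ZNF234 rose by 0.96 ± 0.081, 0.93 ± 0.097 and 0.87 ± 0.081. Of 24 bitter taste receptors of type 2 6 rose and 0 fell, at levels near the low end of the array values, with 3 higher with width, 4 without replicate 2 at 12 h and 1 with dim genes left out. The plot of the lists sets these shares beside the background.

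**Figure D3:**
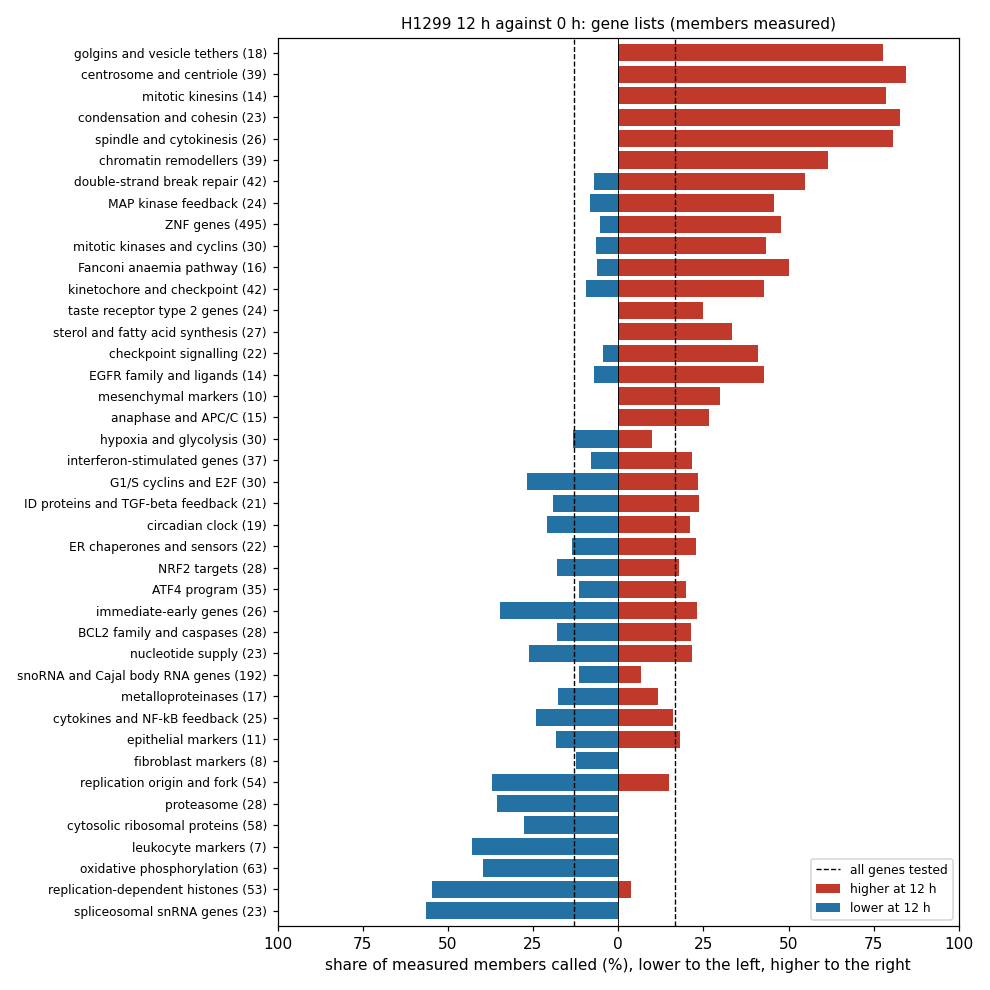
Bars give the share of the measured members of each list that were called higher (red, to the right) or lower (blue, to the left) at 12 h against 0 h, with the number measured in brackets and lists in order of their median change. Dashed lines mark the background of 16.6% higher and 13.1% lower, and centrosome, kinesin, condensation and spindle lists reach furthest to the right.

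Of 11 epithelial markers 2 rose and 2 fell, of 10 mesenchymal markers 3 and 0, of 8 fibroblast markers 0 and 1 and of 7 leukocyte markers 0 and 3. With width these were 0 and 0, 1 and 0, 0 and 0, and 0 and 0, and without replicate 2 at 12 h 1 and 1, 2 and 0, 0 and 0, and 0 and 0. The summed log2 levels of the leukocyte list were 31.3 to 32.8 at 12 h, against 32.6 to 35.0 at 0 h, and those of the fibroblast list 32.4 to 33.7 at 12 h, against 33.2 to 35.6 at 0 h. Vimentin (VIM) averaged 12.08 ± 0.048 (SD, n = 3) in the 12 h arrays, against 11.94 ± 0.11 (SD, n = 6) in the 0 h arrays, and E-cadherin (CDH1) averaged 3.34 ± 0.13 (SD, n = 3) in the 12 h arrays, against 3.71 ± 0.20 (SD, n = 6) in the 0 h arrays. The VIM difference was not called, though it was after quantile normalization (0.12, limma adjusted p = 0.0347). ZEB1, a repressor of E-cadherin, rose by 0.64 ± 0.084 (limma adjusted p = 3.35e-06). CDH1 fell by 0.37 ± 0.11 (adjusted p = 0.0161), a gene near the low end of the array values, and was not called with array width (-0.22, adjusted p = 0.282). Its call was also lost without replicate 1 (adjusted p = 0.0809) or replicate 3 at 12 h (adjusted p = 0.0560). The same held after quantile normalization (adjusted p = 0.0527), with a replicate block (adjusted p = 0.0551) and with only the 9 arrays (adjusted p = 0.0514). CDH1 had the lowest change of the epithelial list, in which changes ran up to 0.39 and 2 members rose, so it does not stand for the list. The keratin KRT18 changed by -0.12 ± 0.071 and was not called. Their part in the other results was not tested.

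The 12 h arrays were also set against the 2 neighbouring times of H1299. Between 12 h and 8 h 0 genes were called by limma, and 0 by robust limma, with a lowest adjusted p of 0.280. At an unadjusted p under 0.05 994 genes (5.40%) differed, 447 higher and 547 lower at 12 h, and this does not show that the times were alike. Between 12 h and 24 h 1536 genes (8.35%) were called, 940 higher (5.11%) and 596 lower (3.24%) at 12 h. After centring each array on its median these were 1155 higher and 389 lower. With array width as a term they were 656 higher and 936 lower. With 1 of the 6 arrays left out the count was 523 to 2011, the lowest without replicate 2 at 24 h and 557 without replicate 2 at 12 h.

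Mitosis genes were higher at 12 h than at 24 h in all 5 lists counted here. Of the kinesins 11 of 14 were higher, of the spindle genes 19 of 26, of the condensation genes 15 of 23, of the kinetochore genes 15 of 42 and of the mitotic kinases 14 of 30, and none of these lists had a lower member. Of the 15 anaphase genes 3 were higher and 0 lower. Array width averaged 3.82 at 12 h and 3.67 at 24 h. The list counts at 12 h against 24 h, here and below, were not repeated with width in the model or with an array left out. The part of array width in them was not tested. CENPE was higher at 12 h by 1.05 ± 0.17 (limma adjusted p = 0.000280), KIF20B by 0.93 ± 0.18 (adjusted p = 0.00233) and PLK1 by 0.84 ± 0.080 (adjusted p = 6.36e-07). PLK1 was 0.52 above 0 h at 12 h and -0.33 relative to 0 h at 24 h. CCNB1 was likewise higher at 12 h than at 24 h by 0.52 ± 0.063 (adjusted p = 1.32e-05). At 8 h against 0 h 11 kinesins, 21 spindle genes, 20 condensation genes, 17 kinetochore genes and 10 mitotic kinases rose. In these lists 0, 0, 0, 2 and 2 fell at 8 h, so the rise was not particular to 12 h.

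By the size of the difference, TAS2R31 (1.47 ± 0.23), TAS2R4 (1.15 ± 0.22) and TAS2R19 (1.15 ± 0.20) led the genes that were called in both comparisons and higher at 12 h than at 24 h. ZBTB41 was higher by 1.06 ± 0.15, CYP1B1, an enzyme of the aryl hydrocarbon response, by 1.002 ± 0.12, and TGFB2 by 0.99 ± 0.12. DDIT4, an inhibitor of mTORC1, was lower at 12 h than at 24 h (difference -1.64 ± 0.15, limma adjusted p = 2.51e-07), with changes of 0.42 at 12 h and 2.06 at 24 h against 0 h. Its call at 12 h was lost without replicate 3 at 12 h (0.29, adjusted p = 0.133). The call of DDIT4 was also lost with array width in the model (0.36, adjusted p = 0.116) and with 0 h replicates 1 to 3 only (adjusted p = 0.0874). That of CYP1B1 was lost without replicate 2 at 12 h (0.35, adjusted p = 0.0541), with array width (0.18, adjusted p = 0.291) and with 0 h replicates 4 to 6 only (adjusted p = 0.0595). CDSN was also lower (difference -1.38 ± 0.27), and its change from 0 h of -1.77 at 12 h stands beside -0.46 at 8 h and -0.39 at 24 h, neither of them called. Its difference of 12 h minus 8 h was not called either (-1.31 ± 0.27, limma adjusted p = 0.280). Of the histones 30 of 53 were lower at 12 h than at 24 h and 1 higher, with differences of -1.04 ± 0.14 for H2AC21, -1.10 ± 0.21 for H2BC10 and -0.94 ± 0.13 for H4C14. Of the ATF4 program 23 of 35 were lower and 0 higher, with differences of -0.94 ± 0.072 for asparagine synthetase (ASNS) and -0.55 ± 0.077 for ATF4. The plot of time courses shows these patterns.

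**Figure D4:**
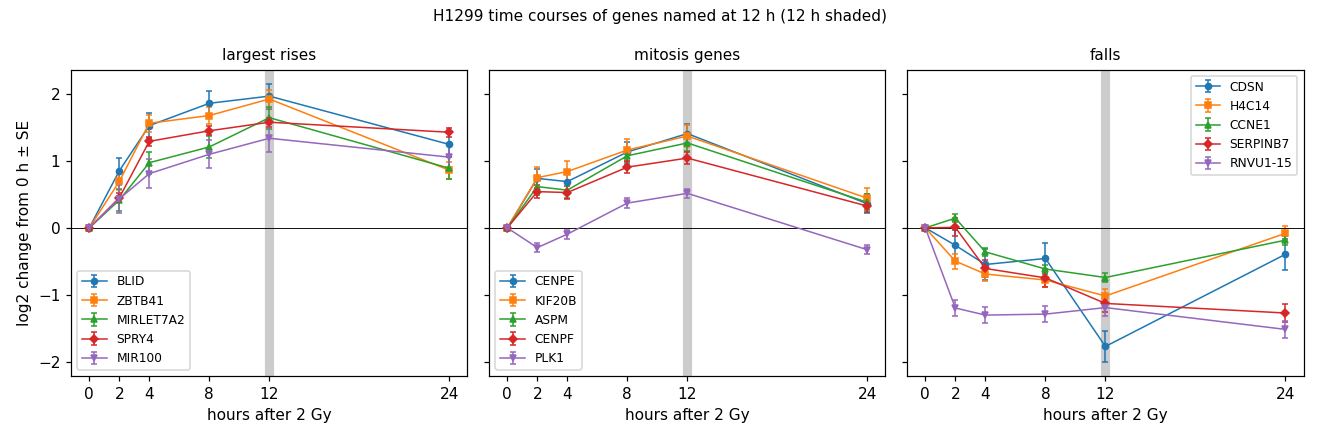
Lines give the log2 change from 0 h with its SE for genes named at 12 h, at 0, 2, 4, 8, 12 and 24 h in H1299, with 12 h shaded. The mitosis genes have their highest mean at 12 h, not called different from 8 h, and lie between -0.33 and 0.44 at 24 h. RNVU1-15 is at -1.19 by 2 h, and CDSN is at -1.77 at 12 h, likewise not called different from 8 h.

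The change at 12 h differed between H1299 and H460 for 1598 genes (8.68%), larger in H1299 for 639 (3.47%) and smaller for 959 (5.21%). Each line was set against its own 0 h arrays, with 3 arrays at 12 h and 6 at 0 h in both. With array width in the model the H1299 change was larger for 988 and smaller for 1051. Without replicate 2 of H460 at 12 h the count was 1065. Among the mitosis lists the H1299 change was larger for 15 of 26 spindle genes, 12 of 30 mitotic kinases and 9 of 14 kinesins, and smaller for none of them. It was larger for 9 of 42 kinetochore genes, 7 of 23 condensation genes and 2 of 15 anaphase genes, and smaller for 1 anaphase gene. In H460 3 spindle genes, 4 kinases and 1 kinesin rose and 2, 13 and 3 fell. KNL1 changed by 0.91 ± 0.090 in H1299 and -0.035 ± 0.12 in H460, a difference of 0.95 ± 0.15 (limma adjusted p = 4.03e-05). ATAD5, which unloads the sliding clamp from DNA, rose by 0.57 ± 0.079 in H1299 and changed by -0.78 ± 0.13 in H460, a difference of 1.34 ± 0.15 (adjusted p = 7.55e-08). ZBTB41 differed by 1.48 ± 0.29 (adjusted p = 0.000606) and the pseudogene DPY19L2P4 by 1.53 ± 0.23 (adjusted p = 1.62e-05).

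At 12 h CDKN1A changed by 0.063 ± 0.071 in H1299, not called, and rose by 1.07 ± 0.13 in H460, a difference of -1.005 ± 0.15 (limma adjusted p = 9.41e-06). In H1299 it rose at 24 h and, near the threshold, at 8 h, and 12 h was not called different from 8 h. MDM2 rose in both lines, by 0.39 ± 0.059 in H1299 and 0.91 ± 0.11 in H460, a difference of -0.52 ± 0.12 (adjusted p = 0.00463).

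DUSP1 had the largest difference among called genes whose H1299 change was smaller, with -0.45 ± 0.085 in H1299 and 1.32 ± 0.091 in H460 (difference -1.77 ± 0.12, limma adjusted p = 3.04e-13). ID2 changed by -0.74 ± 0.089 in H1299 and 0.59 ± 0.11 in H460 (difference -1.33 ± 0.15, adjusted p = 4.12e-08). The aldehyde dehydrogenase ALDH3A1 changed by -0.60 ± 0.16 and 0.81 ± 0.072 (difference -1.41 ± 0.18) and the ion exchanger SLC9B1 by -0.78 ± 0.22 and 0.86 ± 0.27 (difference -1.64 ± 0.38). In H1299 the call of ALDH3A1 was lost without replicate 2 at 12 h (adjusted p = 0.0704) and with array width in the model (-0.28, adjusted p = 0.267). That of SLC9B1 was lost without replicate 3 at 12 h (adjusted p = 0.0898). Of the histones 0 rose and 40 fell in H460 (median -0.77, background 16.8% lower), and the fall was smaller in H1299, with a difference called in that direction for 21 of 53 and in the other for 1. Of the oxidative phosphorylation genes 20 rose and 1 fell in H460, and the H1299 change was smaller for 23 and larger for 0. Of the sterol and fatty acid genes 25 of 27 rose in H460, and the H1299 change was smaller for 11. Golgins rose in both lines, 14 of 18 in H1299 and 12 in H460, as did chromatin genes, 24 of 39 and 18. Array width averaged 3.82 at 12 h against 3.58 at 0 h in H1299, and 3.67 at 12 h against 3.34 at 0 h in H460, and was larger at 12 h in both lines.

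**Figure D5:**
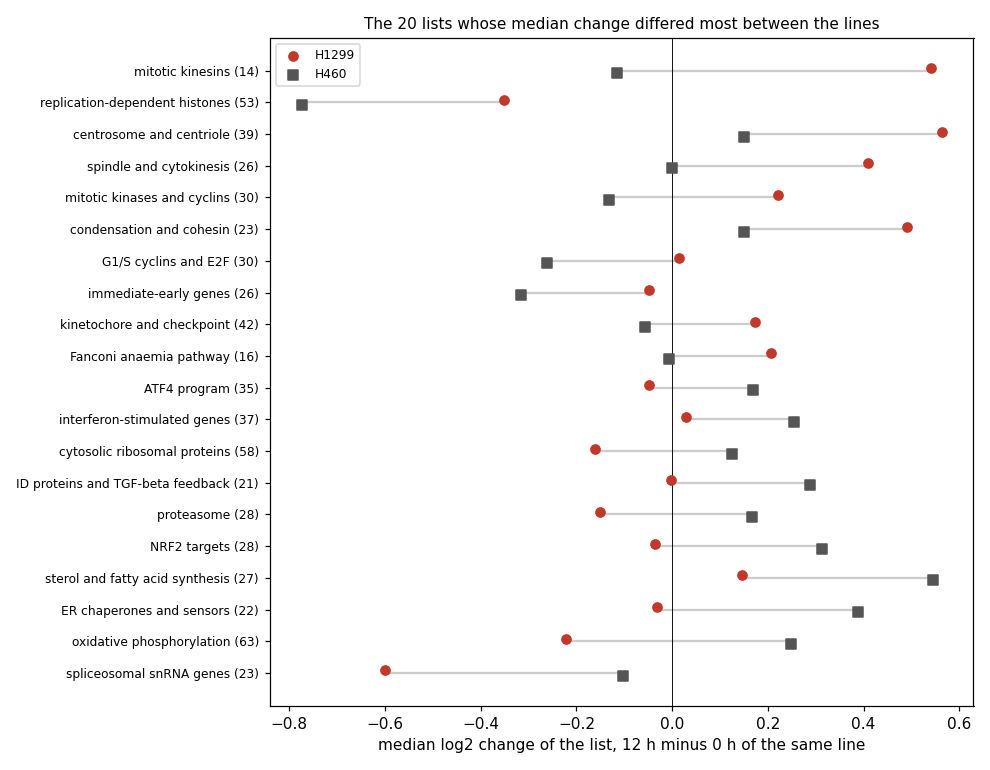
Points are the median log2 change of a list at 12 h against 0 h of the same line, red circles for H1299 and grey squares for H460, for the 20 of the 41 lists whose medians lay furthest apart, a choice made after the values were seen. Kinesins stand at 0.54 in H1299 and -0.11 in H460, and oxidative phosphorylation genes at -0.22 in H1299 and 0.25 in H460.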

How the data were processed

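Total RNA (100 ng) of each sample was hybridised to 1 one-colour whole-transcript Affymetrix array. The deposited values are log2 summaries per probe set, normalized by the authors by a method not given in the sources used here, with the build likewise not given. Of 32321 rows, 19158 had 1 gene symbol in the platform annotation, 1388 had several and 11775 were not in it. Of entries with 1 symbol the highest mean per gene was kept, which left out 754. All 18404 genes entered the tests, dim ones included, and no arrays were identical (0 pairs). Array precision is limited by the number of arrays.

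Groups were taken from the titles. Changes were contrasts in limma 3.58.1 (R 4.3.3, lmFit and eBayes with trend) in a model with 1 mean per time over the 21 H1299 arrays, and the line difference over all 42. P-values were adjusted by Benjamini-Hochberg over all genes, with a threshold of 0.05. The test was checked on simulated data with independent noise in each gene and array. That simulation held no difference in array width, so it cannot show how width moves the calls. Same-numbered arrays at 12 h and 0 h did not deviate together (correlations of -0.17, -0.37 and -0.12), and the model treats them as unpaired. These correlations cannot show whether the cultures were paired, because array width can enter them, and the labels do not say. Named are MDM2 and CDKN1A, the 15 largest rises and 15 largest falls among called genes without overlap, up to 5 members of smallest p per list, and up to 6 genes each way for the other comparisons. The 41 lists (1744 genes measured), the members and the settings were chosen with earlier results of these data known. Promoter and microRNA sequences are RefSeq's, matched by symbol (14230 promoters). A further list is not reported here. Other settings tried are in the closing section.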

Additional observations from a re-analysis of the deposited data

Results flagged for a closer look

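Replicate 2 at 0 h had the narrowest array of H1299, with an interquartile range of 3.24, far enough from the other 5 to stand out by Dixon's test. Of the 152 genes looked at, 21 had 1 array at 0 h that stood apart in the same way, and in 18 it was this replicate. Chance alone sets apart about 1 in 20 groups, and the 3 others were BLID with 5.36 and RPS14 with 11.85 in replicate 1 and MIR100 with 3.26 in replicate 3. In replicate 2 at 0 h the log2 levels that stood apart were 7.64 for RNVU1-15, 9.99 for CCN1, 8.88 for H2AC4, 8.29 for KIF11, 7.63 for ESPL1, 8.39 for CEP170 and 8.04 for RB1. They were 8.69 for CAD, 8.06 for CDC25A, 10.32 for ERRFI1, 8.34 for SEL1L, 8.00 for ACACA and 6.18 for CLOCK. They were 11.73 for RPL35, 6.46 for TGFB2, 11.72 for VIM, 5.50 for H2BC10 and 10.80 for MCM7. The array was kept, and without it 5227 genes were called at 12 h.

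The log2 change at 12 h differed between the lines (H1299 minus H460, limma adjusted p under 0.05) for many genes named above. Among the largest rises the difference was 1.63 for BLID, 1.94 for MIRLET7A2, 1.44 for MIR100, 1.48 for ZBTB41, 1.19 for SPRY4, 0.84 for CCDC18 and 1.04 for TAS2R31. It was 1.21 for ZNF441, 0.91 for SYCP2, 0.97 for N4BP2 and 1.17 for FAM9C. Outside the largest rises it was 1.13 for MIR17HG and 1.53 for DPY19L2P4. In H460 the mean levels at 0 h of ZNF441, SYCP2 and FAM9C were 3.20, 3.19 and 3.58. Like those of BLID, MIRLET7A2 and MIR100, they lay near the low end of the array values.

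Among mitosis and centrosome genes it was 1.21 for CENPE, 1.02 for KIF20B, 0.79 for ASPM, 0.74 for CENPF, 0.99 for SGO2, 0.95 for KNL1 and 0.69 for SPDL1. It was 0.83 for KIF14, 0.67 for KIF18A, 0.87 for KIF23, 0.87 for KIF11, 0.81 for PLK4, 0.86 for ESPL1 and 0.66 for TOP2A. It was 0.57 for SMC4, 0.60 for SMC2, 0.88 for DEPDC1, 0.64 for ECT2 and 0.91 for CCP110. Among replication and repair genes it was 0.73 for CDK6, 0.76 for RIF1, 0.57 for POLQ, 0.84 for BRIP1 and 1.34 for ATAD5. Among histones, which fell more in H460, it was 1.03 for H4C14, 0.85 for H2AC4, 1.005 for H4C2, 1.05 for H2BC14, 1.08 for H3C2 and 1.26 for H2AC21.

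Among signalling genes it was 0.40 for DUSP6, 0.60 for EPHA2, 0.79 for HBEGF, 0.91 for TGFA, 1.205 for LIF, 0.64 for NFKB2, 0.73 for TGFB2 and 0.61 for SKIL. It was 0.52 for PLAU, 0.77 for ZEB1 and 0.55 for PHIP. Differences below 0 were -1.77 for DUSP1, -1.33 for ID2, -0.67 for NFKBIA, -0.52 for CCN1, -0.69 for SERPINB7, -1.41 for ALDH3A1 and -1.64 for SLC9B1. Among cycle and stress genes they were -1.005 for CDKN1A, -0.52 for MDM2, -0.83 for CASP4, -0.47 for ATF4 and -0.76 for DDIT4. They were -0.50 for SLC2A3, -0.51 for RPL35, -0.40 for NDUFS6, -0.70 for RNVU1-15, -0.64 for RNU11 and -0.94 for RNU4-1.

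In H1299, 12 h minus 24 h (limma adjusted p under 0.05) was 0.72 for BLID, 1.06 for ZBTB41, 0.75 for MIRLET7A2, 1.05 for CENPE, 0.93 for KIF20B, 0.84 for PLK1 and 0.52 for CCNB1. It was 1.47 for TAS2R31, 1.15 for TAS2R4, 1.15 for TAS2R19, 1.002 for CYP1B1, 0.61 for ID2 and 0.99 for TGFB2. It was -1.38 for CDSN, -0.94 for H4C14, -1.04 for H2AC21, -1.10 for H2BC10, -0.55 for ATF4, -0.94 for ASNS and -1.64 for DDIT4. It was -0.52 for PLAU and -0.35 for CDKN1A.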

How the results depend on the processing

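For 12 h against 0 h the count of 5474 genes was 3263 with array width as a term, 822 for called genes of at least 1.5-fold, and 3137 to 5498 with 1 array left out, the lowest without replicate 2 at 12 h. It lay within 1.5 times of 5474 without dim genes (5202), without the eBayes trend, with robust eBayes, after quantile normalization (5404, with 2733 higher and 2671 lower), after median centring, with array weights, with all entries, with only the 9 arrays (4018, though the genes called lower moved to 1525), with all 42 arrays (4082), and with 0 h replicates 1 to 3 (4720) or 4 to 6 (4382) only. The labels do not say whether replicate numbers pair the arrays. A replicate block gave 4508 genes, 2947 higher and 1561 lower, against 2411 lower without it. CDKN1A, not called, was the 1 named gene whose sign turned, at -0.0023 after quantile normalization (adjusted p = 0.987). For 12 h against 8 h array weights gave 15 genes, and 0 to 1 were called with 1 array left out. For 12 h against 24 h array weights gave 3726 genes, and leaving out 1 array 523 to 2011. For the line difference array width gave 988 genes higher and 1051 lower, array weights 3883 genes, leaving out 1 array 1065 to 2141, and a replicate block 1105. The cause of these moves was not tested, apart from smaller groups where arrays were left out. Without detection calls, changes of dim genes such as MIR100 have no floor to set them against.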
